A study of Mus musculus with 8 samples.

Results

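Pericytes and smooth muscle cells, together called mural cells, wrap the blood vessels of a tissue, and the genes that mark them were followed in mouse brown adipose tissue, which burns fuel to make heat. The 10 genes Acta2, Myh11, Cnn1, Myl9, Tagln, Rgs5, Cspg4, Pdgfrb, Des and Notch3 were found by gene name among the 54532 genes of the deposited table, and each matched 1 row. RNA was sequenced from whole brown fat of 4 mice labelled TG (CLCF1-ATG) and 4 mice labelled WT, numbered 1, 2, 3 and 5 in each group. The transgene's cytokine, CLCF1, belongs to the interleukin-6 family, and the series title ties it to restrained heat production and to inhibited making of mitochondria. Neither age, sex nor strain of the mice, nor the promoter of the transgene, is given in the sources used here, and no treatment is named for either group.

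Smooth muscle cells of arteries and veins contract when myosin motors pull on actin filaments, and they carry muscle-type forms of actin, myosin, calponin and transgelin. The transcription factor SRF, with its cofactors, switches these genes on through a DNA element called the CArG box. Pericytes of capillaries hold less of this machinery; they are recruited to new vessels by PDGF-B from endothelial cells acting on their receptor PDGFRB, and mural identity also depends on NOTCH3, which is activated by Notch ligands on the endothelium. In brown fat the vessels supply fuel and oxygen and carry heat away.

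The CArG box was sought in the 250 bases before the start of each gene in the RefSeq promoter table (GRCm38.p6), which held 7 of the 10 members; none was looked up for Myh11, Tagln and Pdgfrb. The reverse complement of a CArG box is a CArG box, so 1 search covers both strands. Only Acta2 and Myl9 had a match when 1 G or C was allowed among the 6 central bases, and the windows around these matches are shown because both genes belong to the contractile group described next. Capitals mark the box in each 30-base window, written 5′ to 3′ on the strand of the gene.
Acta2, chr19:34255438-34255467, minus strand, box 84 to 75 bases before the start: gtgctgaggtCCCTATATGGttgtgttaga
Acta2, chr19:34255388-34255417, minus strand, box 34 to 25 bases before the start: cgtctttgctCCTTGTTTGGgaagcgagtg
Myl9, chr2:156775293-156775322, plus strand, box 161 to 152 bases before the start: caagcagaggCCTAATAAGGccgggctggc
Myl9, chr2:156775355-156775384, plus strand, box 99 to 90 bases before the start: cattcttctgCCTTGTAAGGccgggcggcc
Only the first Myl9 box has no G or C in its centre. Windows of the same length held such a strict box in 1.47% of 32851 promoters, and a strict or relaxed box in 8.59%. A match is a string of letters and not a measured binding site. The RefSeq start of Acta2 used for these distances lies outside the gene as deposited, which ends at 34255336.

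Expression was given as FPKM, in which reads are set against gene length and a divisor for each library, so levels can be compared between genes. The reads behind each value, recovered as described under the processing, numbered 18494022 to 20183840 per TG library and 13734231 to 15751302 per WT library. Clcf1, which checks the genotype, stood at 78.7 to 89.9 FPKM in TG and 0.434 to 3.40 FPKM in WT, so all 8 libraries followed their labels. Skeletal muscle markers stood apart in TG 5 and WT 2: the summed FPKM of 12 such markers was 2009 in TG 5 against 198 to 385 in the other TG libraries, and 3623 in WT 2 against 12.6 to 365 in the other WT libraries. Mitochondrial transcripts took 6.09% to 7.34% of reads in TG and 24.1% to 37.5% in WT. All differences were taken as log2(FPKM + 1) in TG minus that in WT. On this scale changes of weakly expressed genes come out too small. A gene was called at a Benjamini-Hochberg adjusted p under 0.05 in limma.

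Most of the mural genes were lower in TG, and Cspg4 was higher. Of the 10 members 7 were called lower (Acta2, Myh11, Cnn1, Myl9, Rgs5, Pdgfrb and Notch3), 1 was called higher (Cspg4), Des was not called, and Tagln was not tested because no library reached 0.5 FPKM. Among all 12508 tested genes 44.1% were called, 21.8% lower and 22.3% higher, so calls in either direction were common in this comparison. The 4 TG values lay wholly below the 4 WT values for 6 members, against 20.5% of all tested genes, and wholly above them for Cspg4, against 22.1%. Pdgfrb, Des and Tagln overlapped between the groups. Myh11 and Cnn1 passed the filter of 0.5 FPKM in 4 libraries through the WT libraries alone. For genes of that kind a difference, and the lack of overlap, was built into their passing. Both are counted among the 6 and the 7 above, and without them Acta2, Myl9, Rgs5 and Notch3 remain wholly below WT. Libraries were made from whole tissue, where fewer cells of a type and less RNA per cell cannot be told apart.

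**Figure D1:**
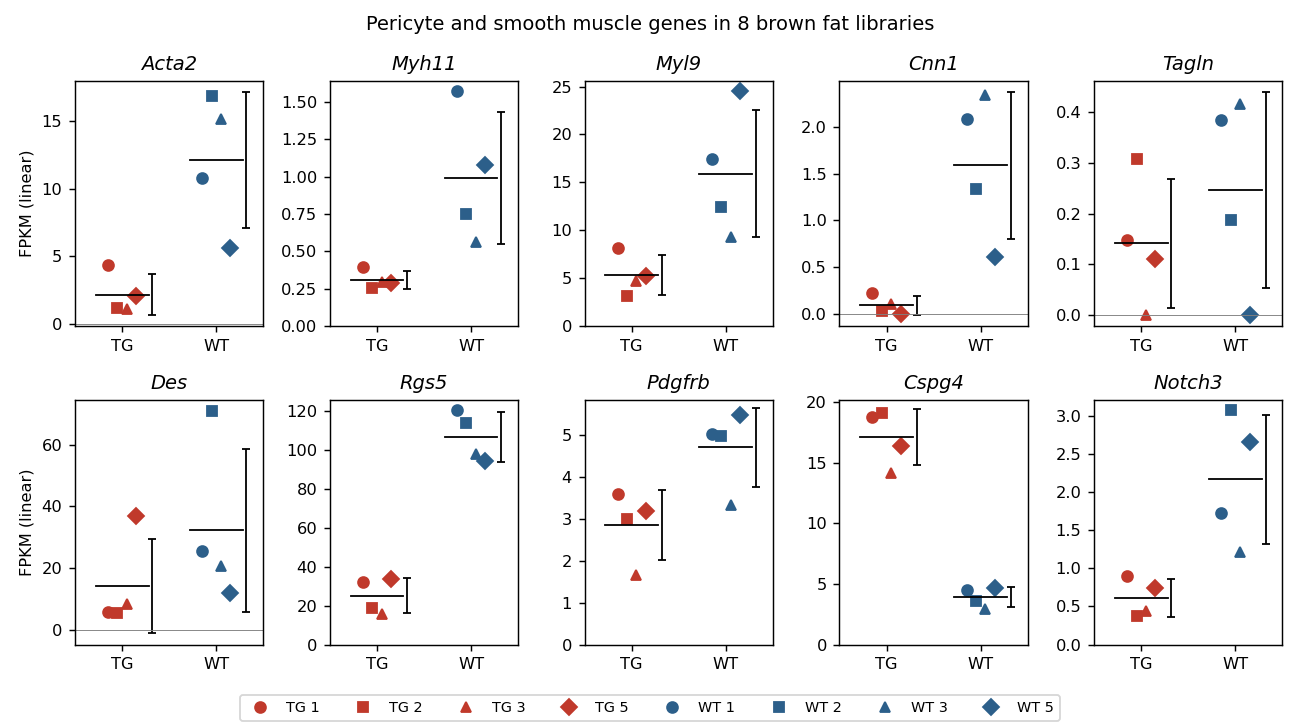
FPKM (linear axes, a scale per gene) of the 10 members in each TG and WT library; marker shapes give the mouse number, horizontal lines the mean and error bars the SD (n = 4 each). The TG points lie below all WT points for Acta2, Myh11, Myl9, Cnn1, Rgs5 and Notch3 and above them for Cspg4, while Pdgfrb, Des and Tagln overlap.

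Acta2 encodes smooth muscle alpha-actin, the thin filament of vascular muscle (ENSMUSG00000035783, chromosome 19, 34241090 to 34255336, minus strand). It stood at 4.31, 1.14, 1.11 and 2.03 FPKM in TG 1, 2, 3 and 5, against 10.8, 16.9, 15.2 and 5.59 FPKM in WT 1, 2, 3 and 5. TG 1 was the highest of its group and WT 5 the lowest of the WT libraries, and the groups did not overlap. The mean of 2.147 ± 1.504 FPKM in TG against 12.1 ± 5.05 FPKM in WT (SD, n = 4 each) gave a log2 difference of -2.07 (SE 0.367, limma adjusted p = 0.00160). These values rested on 43 to 183 reads per TG library and 114 to 405 reads per WT library.

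Myl9 encodes the regulatory light chain whose phosphorylation starts contraction in smooth muscle (ENSMUSG00000067818, chromosome 2, 156775420 to 156781658, plus strand). Its FPKM were 8.12, 3.13, 4.75 and 5.26 in TG 1, 2, 3 and 5, against 17.4, 12.5, 9.32 and 24.5 in WT 1, 2, 3 and 5. As for Acta2, TG 1 was the highest TG library, but WT 5, the lowest WT library for Acta2, was the highest for Myl9. The log2 difference of Myl9 was -1.40 (SE 0.302, limma adjusted p = 0.00461).

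Myh11, the myosin heavy chain of smooth muscle (ENSMUSG00000018830, chromosome 16, 14194535 to 14291372, minus strand), was much weaker than Acta2 per length of gene. It stood at 0.397, 0.255, 0.294 and 0.287 FPKM in TG 1, 2, 3 and 5 and at 1.58, 0.753, 0.564 and 1.08 FPKM in WT 1, 2, 3 and 5. The 4 TG libraries were close to each other, while the WT libraries spread widely, with WT 1 highest and WT 3 lowest. The ratio of the group means was 0.310 (log2 difference -0.58, SE 0.155, limma adjusted p = 0.0127). The log2 difference is smaller than this ratio implies because of the added 1 FPKM; with an added 0.1 it was -1.35.

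Cnn1, which encodes calponin 1, an actin-binding protein of differentiated smooth muscle (ENSMUSG00000001349, chromosome 9, 22099216 to 22109630, plus strand), had the lowest TG level of the tested members. TG 1, 2, 3 and 5 held 15, 2, 7 and 0 reads of Cnn1, or 0.230, 0.0345, 0.112 and 0 FPKM. WT 1, 2, 3 and 5 held 67, 49, 85 and 19 reads, or 2.08, 1.33, 2.34 and 0.607 FPKM. Every TG library was below every WT library, and the ratio of the group means, TG over WT, was 0.0593 (log2 difference -1.19, SE 0.215, limma adjusted p = 0.00174). With so few TG reads the size of the difference depended on the added constant, reaching -3.12 with 0.1 and -4.56 with 0.01.

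Tagln encodes transgelin, usually an abundant actin-binding protein of smooth muscle (ENSMUSG00000032085, chromosome 9, 45929619 to 45936058, minus strand). The deposited table gave it 0.148, 0.309, 0 and 0.110 FPKM in TG 1, 2, 3 and 5 and 0.384, 0.187, 0.416 and 0 FPKM in WT 1, 2, 3 and 5. All 8 libraries together held 50 reads, the groups overlapped, and without the filter its log2 difference was not called (limma adjusted p = 0.549). In the GENCODE M21 annotation 67.9% of the exon bases of Tagln are shared with genes on the opposite strand, 1241 bases with the antisense gene Gm48529 and 108 bases with Pcsk7. The other members share at most 6.03% of their exon bases with another gene. Sources used here do not say whether the counting used strand, so reads of Tagln and of its partners cannot be told apart and its level is uncertain.

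Des encodes desmin, the intermediate filament of all muscle types, which pericytes hold as well (ENSMUSG00000026208, chromosome 1, 75360329 to 75368579, plus strand). It stood at 6.01, 5.53, 8.48 and 37.0 FPKM in TG 1, 2, 3 and 5, against 25.6, 70.9, 20.7 and 12.1 FPKM in WT 1, 2, 3 and 5. The highest library of each group, TG 5 and WT 2, was the library with the most skeletal muscle RNA, and the groups overlapped. Des was not called over all libraries (log2 difference -1.26, SE 0.629, limma adjusted p = 0.132). Without TG 5 and WT 2 the difference was -1.37 and was called (adjusted p = 0.00746), and without TG 5 alone it was -1.84 (adjusted p = 0.0172). The summed skeletal muscle markers of TG 1, TG 2 and TG 3 were 258, 198 and 385 FPKM. Those of WT 1, WT 3 and WT 5 were 365, 193 and 12.6 FPKM. The part of skeletal muscle RNA in the Des values was not tested.

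**Figure D2:**
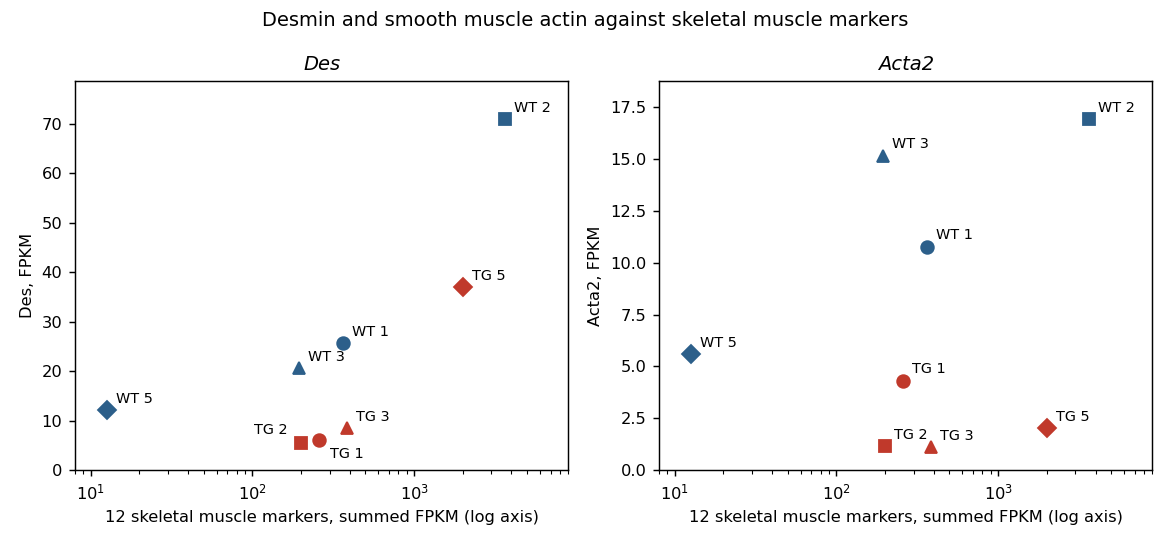
FPKM of Des (left) and Acta2 (right) against the summed FPKM of 12 skeletal muscle markers on a log axis, a point per TG (red) and WT (blue) library. TG 5 and WT 2 lie far to the right; they are the highest of their groups for Des. For Acta2, WT 2 at 16.9 FPKM is again the highest of its group, while TG 5 at 2.03 FPKM is below TG 1 and every WT library.

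Rgs5 encodes a brake on G protein signalling and is a defining transcript of pericytes (ENSMUSG00000026678, chromosome 1, 169655501 to 169695813, plus strand). It was the most abundant member per length of gene in all 4 WT libraries. Its FPKM were 31.9, 18.8, 15.8 and 33.6 in TG 1, 2, 3 and 5, against 120.5, 113.7, 97.6 and 94.2 in WT 1, 2, 3 and 5. The TG libraries fell into a higher pair, 1 and 5, and a lower pair, 2 and 3, and all of them were far below the lowest WT library. The log2 difference of Rgs5 was -2.11 (SE 0.232, limma adjusted p = 9.41e-05), and it rested on at least 1644 reads in every library.

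Notch3, the Notch receptor of mural cells (ENSMUSG00000038146, chromosome 17, 32120820 to 32166880, minus strand), stood at 0.897, 0.376, 0.435 and 0.743 FPKM in TG 1, 2, 3 and 5. In WT 1, 2, 3 and 5 it stood at 1.73, 3.08, 1.22 and 2.65 FPKM. TG 1 and TG 5 were again above TG 2 and TG 3, as for Rgs5, and the groups did not overlap. The log2 difference of Notch3 was -0.95 (SE 0.201, limma adjusted p = 0.00423).

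Pdgfrb, the receptor that draws pericytes to vessels (ENSMUSG00000024620, chromosome 18, 61045150 to 61085061, plus strand), showed the smallest ratio between groups among the called members. It stood at 3.58, 2.9996, 1.65 and 3.19 FPKM in TG 1, 2, 3 and 5, against 5.04, 4.98, 3.32 and 5.47 FPKM in WT 1, 2, 3 and 5. TG 3 and WT 3 were the lowest of their groups, and WT 3 lay below TG 1. The log2 difference was -0.58 (SE 0.192, limma adjusted p = 0.0346). The call was lost on leaving out TG 2, TG 3, WT 1, WT 2 or WT 5 (adjusted p = 0.0601 to 0.0769), and with division by all recovered reads the difference was -0.24 (adjusted p = 0.343).

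Cspg4 encodes the proteoglycan NG2, a surface protein used to mark pericytes and also found on other progenitor cells (ENSMUSG00000032911, chromosome 9, 56865033 to 56899870, plus strand). It ran against the other members: 18.8, 19.1, 14.2 and 16.4 FPKM in TG 1, 2, 3 and 5, against 4.50, 3.57, 2.95 and 4.70 FPKM in WT 1, 2, 3 and 5. All TG libraries were far above the highest WT library. The mean was 17.1 ± 2.30 FPKM in TG and 3.93 ± 0.819 FPKM in WT (SD, n = 4 each), a ratio of 4.35 (log2 difference 1.88, SE 0.147, limma adjusted p = 1.23e-05). Reads of Cspg4 numbered 3861 to 5338 per TG library and 468 to 642 per WT library.

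The order of the members by FPKM therefore differed between the groups. In TG libraries Cspg4 ranked 1 in TG 2, 2 in TG 1 and TG 3, and 3 in TG 5. In every WT library Cspg4 ranked 6, and Rgs5 ranked 1. The ratio of Cspg4 to Rgs5 within a library, which no scaling of libraries can change, was 0.488 to 1.02 in TG and 0.0302 to 0.0499 in WT. The ratio of Cspg4 to Pdgfrb was 5.15 to 8.56 in TG and 0.717 to 0.894 in WT. In contrast, the ratio of Acta2 to Rgs5 overlapped between the groups, at 0.0606 to 0.135 in TG and 0.0594 to 0.155 in WT.

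**Figure D3:**
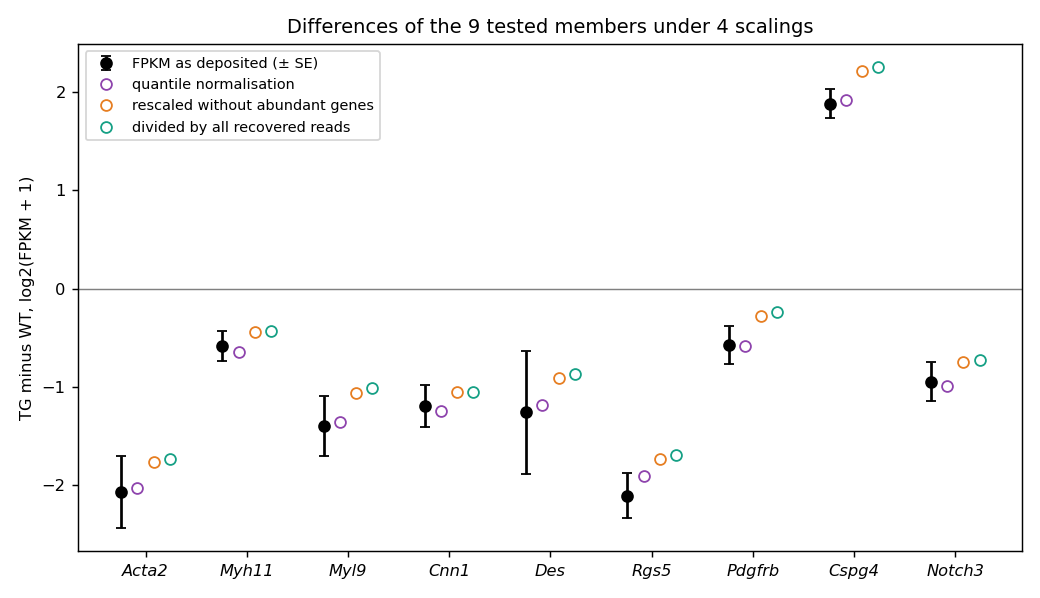
Log2 differences, TG minus WT, of the 9 tested members with FPKM as deposited (black, bars are SE) and under 3 other scalings (open circles). Every member keeps its direction; Pdgfrb moves closest to 0, from -0.58 to -0.24 with division by all recovered reads.

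Scaling mattered for the size of these differences. Division by all recovered reads moved the median log2 difference of all tested genes to 0.32, against 0.01 with FPKM as deposited. Under that division Acta2 was at -1.73, Rgs5 at -1.69, Myl9 at -1.02, Cnn1 at -1.05, Notch3 at -0.73, Myh11 at -0.43 and Cspg4 at 2.25, and all of these were still called.

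The muscle-type genes have relatives used by other cells, and many of these relatives were lower in TG as well. Of 15 tested relatives and partner filaments 12 were called lower, 2 higher and 1 was not called, with a median log2 difference of -0.91 against 0.01 over all tested genes. Over all tested genes 21.8% were lower and 22.3% higher. With division by all recovered reads 7 of the relatives were called lower, as were 1442 of all 12508 tested genes. The cytoplasmic actin genes Actb and Actg1 averaged 293 ± 26.1 and 174 ± 30.2 FPKM in TG, against 642 ± 204 and 465 ± 168 FPKM in WT (SD, n = 4 each). Their log2 differences were -1.07 and -1.35 (limma adjusted p = 0.00511 and 0.00268), and that of Actb was not called with quantile normalisation (-0.39, adjusted p = 0.206). Acta2 made up 0.253% to 0.853% of the summed FPKM of Acta2, Actb and Actg1 in TG and 0.478% to 1.70% in WT.

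Calponin genes of other cells showed the same direction as Cnn1. Cnn3, found in many non-muscle cells, averaged 7.06 ± 0.621 FPKM in TG and 27.9 ± 10.7 FPKM in WT (log2 difference -1.78, limma adjusted p = 0.000153), and Cnn2 had -0.73 (adjusted p = 0.0126). Among the light chains, Myl12b, the relative most like Myl9 in transcript sequence, was not tested, at 0.253 to 0.767 FPKM in TG and 0.184 to 1.21 FPKM in WT. Myl12a, a form of non-muscle cells, had -1.01 and Myl6, the essential light chain, -0.54. The transgelin relative Tagln2 had -0.73. Dividing by all recovered reads instead ended the calls of Cnn2, Myl6 and Tagln2. The myosin heavy chains split: Myh9 and Myh14, both non-muscle forms, were lower (-0.93 and -0.51), and Myh10, another non-muscle form, was higher, at 2.82 ± 0.155 FPKM in TG and 1.43 ± 0.271 FPKM in WT (0.66, limma adjusted p = 0.00106). Myh14 was no longer called after dividing by all recovered reads, or on leaving out TG 1, TG 3, TG 5 or WT 3.

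**Figure D4:**
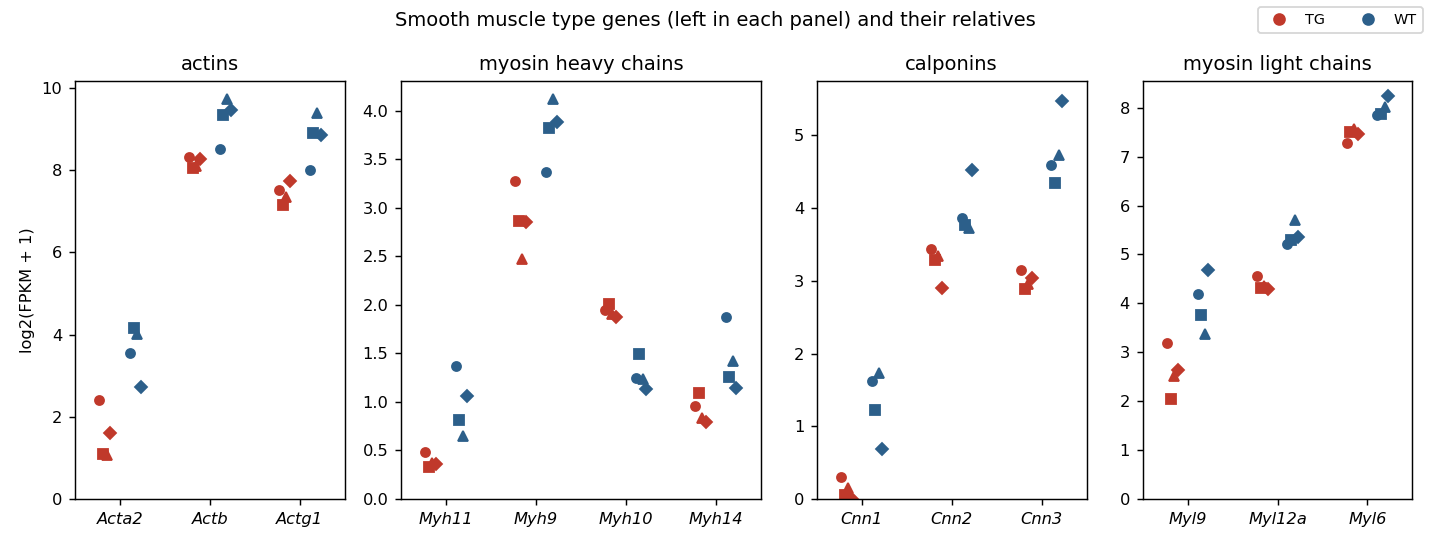
Log2(FPKM + 1) of the muscle-type gene (left in each panel) and its relatives in TG (red, left) and WT (blue, right) libraries; marker shapes give the mouse number as in the plot of members. Acta2, Cnn1 and Myl9 lie below the relatives shown in every library, Myh11 lies below Myh9 but above Myh10 in WT 1, and TG points lie below WT points for all genes shown except Myh10.

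Intermediate filament genes beside Des also moved. Nes, which encodes nestin, a filament of progenitor and vascular cells, averaged 0.747 ± 0.251 FPKM in TG and 6.15 ± 1.75 FPKM in WT (log2 difference -2.02, limma adjusted p = 2.47e-05). Cryab, a chaperone that binds desmin, had a log2 difference of -1.79 and Synm, which pairs with desmin, -0.91. Synm was no longer called after dividing by all recovered reads, or on leaving out TG 1, TG 2, TG 3 or WT 2. Vim, the filament of mesenchymal and endothelial cells, was higher in TG (0.41, adjusted p = 0.0305), and its call was lost on leaving out TG 1, TG 5, WT 1, WT 2 or WT 5. The skeletal muscle actin Acta1 ranged from 43.8 to 588 FPKM in TG and from 8.99 to 1097 FPKM in WT and was not called (0.29, adjusted p = 0.873). The longest transcripts of Acta2 and Acta1 are 85.4% identical over 1133 aligned bases. How reads that match both genes were counted was not tested. Acta2 was at 2.03 FPKM in TG 5, between the other TG libraries, where Acta1 was at 588 FPKM. In WT 2, where Acta1 was at 1097 FPKM, Acta2 was at 16.9 FPKM, the highest of the 8 libraries.

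The wider contractile list showed no common direction. Of 22 genes counted here 15 were tested, of which 4 were lower, 1 higher and 10 were not called, with a median log2 difference of -0.35. Among all tested genes 21.8% were lower and 22.3% higher, so lower calls were not much more common in this list. The genes called lower were Smtn, a cytoskeletal protein of contractile smooth muscle (-1.07), Cald1, which encodes the actin-binding caldesmon (-1.11), Ppp1r14a, an inhibitor of myosin phosphatase (-1.04), and Mustn1 (-3.03), the last 2 named after their values were seen. Mustn1 is also expressed in skeletal muscle, and it stood at 4.75, 2.02, 5.67 and 6.71 FPKM in TG 1, 2, 3 and 5, against 15.8, 60.9, 108.9 and 33.6 FPKM in WT 1, 2, 3 and 5. The gene called higher was Mylk, the kinase of the myosin light chain (0.85). Tpm1, a tropomyosin named after its values were seen, followed the muscle-rich libraries like Des, at 36.6 FPKM in TG 5 against 7.01 to 10.6 FPKM in the other TG libraries and at 65.2 FPKM in WT 2 against 14.3 to 22.2 FPKM in the other WT libraries. Tpm1 was called lower only when TG 5 was left out, alone or with WT 2. Some markers of contractile smooth muscle were hardly seen: Myocd, the SRF cofactor of smooth muscle, had 2 reads in all 8 libraries together and Kcnmb1, a potassium channel subunit, had 1.

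Other pericyte genes were called in both directions, at shares somewhat above those of all tested genes. Of 25 listed genes 22 were tested, of which 6 were lower, 7 higher and 9 were not called, with a median log2 difference of 0.03; over all tested genes 21.8% were lower and 22.3% higher. Lower in TG were Kcnj8, a channel subunit that responds to cell energy state, at 2.23 ± 1.00 FPKM in TG and 8.81 ± 3.06 FPKM in WT (-1.61, limma adjusted p = 0.00119), the pericyte transcript Higd1b (-1.38), Cox4i2, a respiratory subunit found in pericytes (-1.41), and the phosphodiesterase gene Pde3a (-0.64), which passed the filter through the WT libraries alone. The names of these 4 were picked once their values were known. Higher in TG were Vtn, which encodes the matrix protein vitronectin (1.90), Mcam, an adhesion molecule of endothelial and mural cells (1.58), Steap4, a metalloreductase (1.53), and Art3 (1.47). Mcam averaged 56.2 ± 4.72 FPKM in TG and 18.3 ± 3.31 FPKM in WT (SD, n = 4 each).

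Itga7 (1.08), Aoc3 (0.93) and Ednra (0.56), picked in the same way, were the other genes of that list called higher. Steap4 and Aoc3 are abundant in adipocytes. Of 8 adipocyte markers 6 were called higher in TG and none lower, against 22.3% and 21.8% of all tested genes. The summed level of these 8 markers was 22235 to 34129 FPKM in TG and 8643 to 10428 FPKM in WT. On average the sum was 28305 FPKM in TG and 9371 FPKM in WT. Of these, 18445 and 3702 FPKM came from Cfd alone, and 2 of the 8 markers were not called. The part of adipocyte RNA in the pericyte list was not tested.

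**Figure D5:**
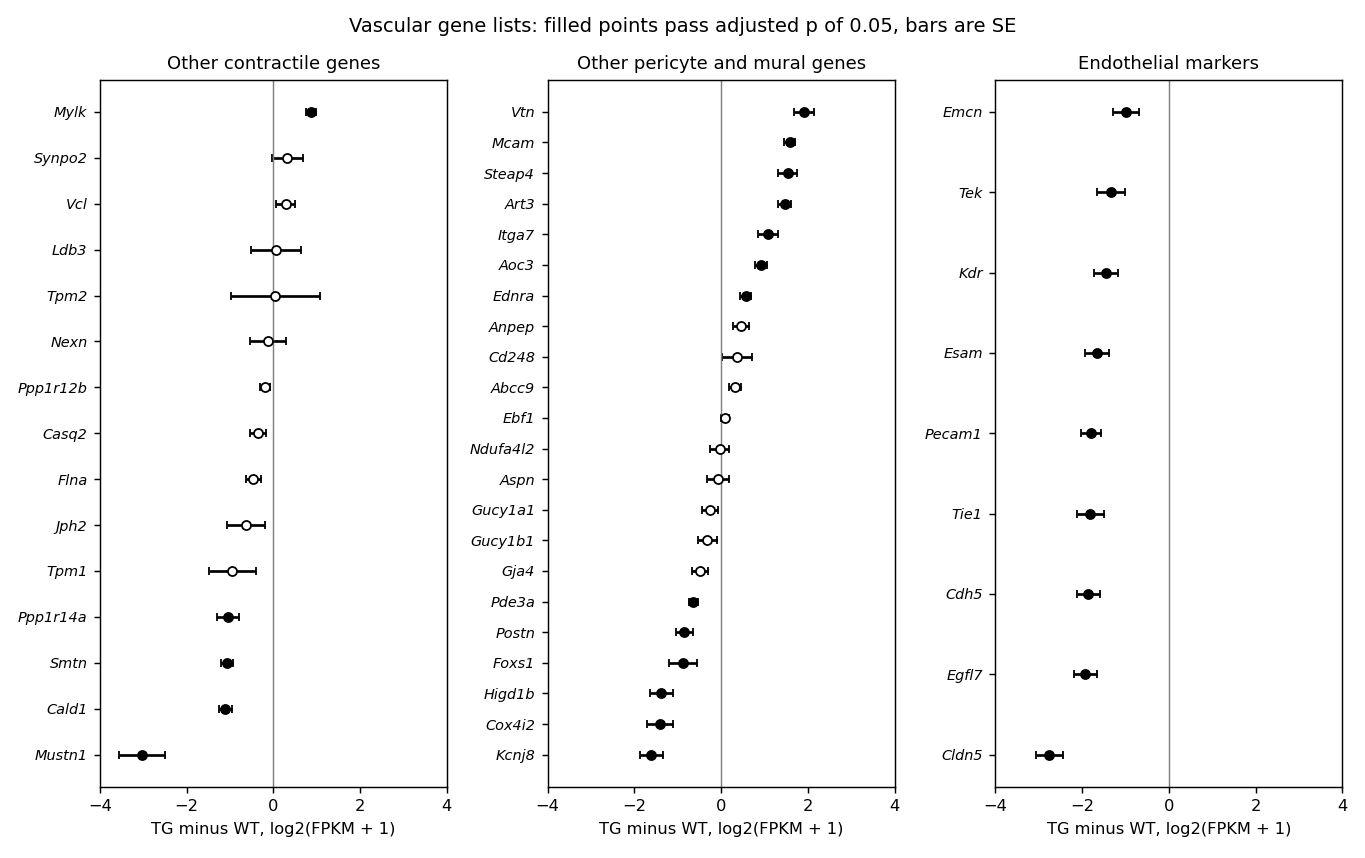
Log2 differences, TG minus WT, with SE bars for the tested genes of the contractile list, the pericyte and mural list and the endothelial markers; filled points passed an adjusted p of 0.05. The 2 mural lists spread to both sides of 0, while all 9 endothelial markers lie below it.

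Endothelial markers were lower together, with all 9 tested of 10 listed called lower and a median log2 difference of -1.80. Of all tested genes 21.8% were called lower. Pecam1, an adhesion molecule of endothelial cells, averaged 3.97 ± 1.43 FPKM in TG and 16.2 ± 4.31 FPKM in WT (log2 difference -1.80, limma adjusted p = 0.000223), and Cldn5, a tight junction protein, had -2.76. The ratio of Rgs5 to Pecam1 within a library was 5.12 to 8.29 in TG and 4.198 to 8.34 in WT, so it overlapped. The ratio of Acta2 to Pecam1 overlapped as well, at 0.310 to 0.741 in TG and 0.249 to 1.24 in WT. The ratio of Pdgfrb to Pecam1 did not overlap, at 0.616 to 0.816 in TG and 0.244 to 0.365 in WT.

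Of the other cell types looked at, 5 of 10 fibroblast markers were higher and 1 lower in TG (median 0.75), with the matrix gene Fbln1 at 5.01 ± 2.13 FPKM in TG and 0.546 ± 0.0891 FPKM in WT. Of 8 macrophage markers 4 were higher and none lower. Of 8 brown adipocyte markers 7 were lower and none higher. All 3 tested neutrophil markers were lower. The summed FPKM of the 6 listed ones still overlapped, at 2.11 to 25.8 in TG and 12.3 to 381 in WT. Also lower were 1 of 3 lymphatic and 1 of 4 Schwann cell markers, and 2 of 4 lymphocyte markers were higher. The lymphatic marker called lower was Flt4, which passed the filter through the WT libraries alone. It stood at 0.154 to 0.206 FPKM in TG and 0.722 to 1.95 FPKM in WT. Among all tested genes 21.8% were lower and 22.3% higher. Cardiac muscle and mesothelium markers were all under the filter, and their summed levels reached at most 0.376 and 1.34 FPKM in any library. Of the 9 tested skeletal muscle markers none was called. The part of these cell types in the mural differences was not tested.

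The PDGF family around Pdgfrb moved in both directions. All 6 other listed genes were tested, of which 4 were lower and 2 higher. The shares over all tested genes were 21.8% lower and 22.3% higher. Pdgfb, the endothelial ligand of the receptor, averaged 2.21 ± 0.429 FPKM in TG and 10.6 ± 3.10 FPKM in WT (log2 difference -1.82, limma adjusted p = 5.24e-05), and every TG library was below every WT library. Pdgfd, another ligand of this receptor, was lower by less (-0.80). Pdgfa, a ligand of the alpha receptor, averaged 2.83 ± 0.365 FPKM in TG and 9.97 ± 3.45 FPKM in WT (-1.47). Pdgfc, also a ligand of the alpha receptor, was higher, at 5.44 ± 0.774 FPKM in TG and 2.28 ± 0.545 FPKM in WT (0.98, adjusted p = 0.000448). The receptor-like gene Pdgfrl, which passed the filter through the TG libraries alone, was higher (0.72), and the alpha receptor Pdgfra lower (-0.53), a call that ended on leaving out TG 2, TG 3, TG 5 or WT 1 and after dividing by all recovered reads.

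Genes of the Notch pathway beside Notch3 were called in both directions. Of 23 listed genes 22 were tested, of which 8 were lower, 5 higher and 9 were not called, with a median log2 difference of 0.06. The share called higher was near the 22.3% of all tested genes, and the share called lower was above their 21.8%. After dividing by all recovered reads 11 were higher and 6 lower, as were 5536 and 1442 of all 12508 tested genes. Dll4, a Notch ligand of endothelial cells, averaged 1.56 ± 0.197 FPKM in TG and 9.35 ± 3.09 FPKM in WT (log2 difference -1.98, limma adjusted p = 3.98e-05). Nrarp, a feedback inhibitor and target of Notch signalling, had -1.06, and Heyl, a Notch target of vascular muscle named after its value was seen, -0.68. Called higher were the protease components Ncstn, Psen2 and Adam10, which cut Notch receptors (0.77, 0.90 and 0.58), the target gene Hey2 (0.87) and the ligand Jag1 (0.41), of which Psen2, Adam10 and Jag1 were picked once their values were known. Nrarp and the ligand Dll1 passed the filter through the WT libraries alone and Hey2 through the TG libraries alone. Dll1, named after its values were seen, stood at 0.0934 to 0.290 FPKM in TG and 0.563 to 3.13 FPKM in WT. The 8 lower calls thus include genes whose difference was built into their passing. The call of Jag1 was lost on leaving out TG 1, TG 2, TG 5, WT 1, WT 2 or WT 3.

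Srf itself, the factor that binds CArG boxes, was lower, at 9.27, 6.04, 8.02 and 8.31 FPKM in TG 1, 2, 3 and 5 and 9.80, 23.5, 35.2 and 13.2 FPKM in WT 1, 2, 3 and 5. The groups did not overlap, but WT 1 was close to TG 1, and WT 3 was highest. The log2 difference of Srf was -1.12 (SE 0.334, limma adjusted p = 0.0217), and the call was lost on leaving out TG 2 or WT 2 and after dividing by all recovered reads (-0.73, adjusted p = 0.0970). Over the list of SRF and its cofactors 7 of 13 tested genes were lower, 2 higher (Elk1 and Tead1) and 4 were not called. The shares of all tested genes were 21.8% lower and 22.3% higher. Tead1 was no longer called without WT 1 or WT 2. The median log2 difference of the list was -0.58. Csrp2, a LIM protein of smooth muscle, averaged 8.12 ± 2.62 FPKM in TG and 32.8 ± 3.35 FPKM in WT (-1.93, adjusted p = 3.50e-05). Its relative Csrp1 had -0.65, and Klf4, a repressor of contractile genes, -0.85. Dividing by all recovered reads left 2 genes of this list called lower, and 1442 of all 12508 tested genes.

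Among 8 tested relatives of Rgs5 the 1 called was Rgs4. With abundant genes set aside or after dividing by all recovered reads 2 others of them were called higher. That division called 5536 of all 12508 tested genes higher and 1442 lower, against 22.3% and 21.8% with FPKM as deposited. Rgs4 stood at 0.793 ± 0.349 FPKM in TG and 4.61 ± 0.925 FPKM in WT (log2 difference -1.65, limma adjusted p = 7.36e-05). Of 11 tested receptors for vasoactive signals 6 were lower, 1 higher and 4 were not called, and after the same division 4 were lower and 2 higher. Adra1a, an alpha-1 adrenergic receptor, averaged 1.54 ± 0.225 FPKM in TG and 6.54 ± 1.30 FPKM in WT (-1.56, limma adjusted p = 3.50e-05). Npr1, the natriuretic peptide receptor, had -1.35, the endothelin receptor Ednrb -1.27 and the prostaglandin receptor Ptger3 -0.92. Ednra, the endothelin receptor of smooth muscle, was the gene called higher, at 1.56 ± 0.147 FPKM in TG and 0.741 ± 0.229 FPKM in WT (0.56, adjusted p = 0.00445); it is on the pericyte list too.

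The protein-coding genes outside the members whose profile over the 8 libraries lay nearest to the mean profile of Acta2, Myh11, Cnn1, Myl9 and Tagln were Rdh13, Ninj1, Gpd1, Acsf3 and Fjx1. Their Euclidean distances, on centred log2(FPKM + 1) values, were 0.414 to 0.445, against 0.689 for Cnn1, the nearest member. The 2 are not like for like. Cnn1 is part of that mean profile, while the outside genes were picked as the nearest of all tested protein-coding genes. Gpd1, an enzyme of glycerol phosphate supply, averaged 447 ± 33.6 FPKM in TG and 886 ± 118 FPKM in WT (SD, n = 4 each), and its call was lost with quantile normalisation. With 8 libraries in 2 groups, this distance depends mainly on the difference between the groups.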

How the data were processed

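Brown fat RNA of 4 TG and 4 WT mice was analysed, 1 library per mouse. The submitters' processing notes name bcl2fastq, HISAT2 2.0.5, featureCounts 1.5.0-p3 and the build mm10; no source used here gives the strand setting or annotation release. The authors deposited FPKM per gene. Multiplied by gene length, these values stepped in whole units of 1 size per library, to within 1.61e-07 of a unit, so reads were recovered by division; they served for depth, read numbers and alternatives. Reads summed to 0.822 to 0.883 times the divisor implied by FPKM in TG and 1.02 to 1.22 times in WT.

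The test was limma (version 3.58.1, R 4.3.3, two-sided, eBayes with trend) on log2(FPKM + 1) of the 12508 genes that reached 0.5 FPKM in 4 or more libraries, with adjustment over all of them. The fit was also run on simulated data. Each group's spread is that among its 4 mice, and p-values rest on it. The members and gene lists were chosen with earlier results of these data known. All members, Clcf1, the genes of 3 short lists (relatives and partner filaments, PDGF, SRF) and up to 4 genes per other list with the lowest p could be named; others were named after their values were seen. Alternatives covered pseudocount, filter, scaling, variance model, replicate block and left-out libraries. Mouse numbers were not used as pairs: deviations of same-numbered mice from their group means correlated at -0.238 to 0.0373 across genes, which are not independent replicates. Transcripts were aligned with blastn 2.17.0. Figures used matplotlib 3.10.9. Of the contractile list, 1 gene is not reported here.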

Additional observations from a re-analysis of the deposited data

Results flagged for a closer look

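In groups of 4 libraries, a library was singled out when its gap to the nearest other made up more of the group's range than Dixon's 95% limit allows. Of 196 groups looked at, 16 had such a library; chance alone gives about 1 in 20. Of the members, Des was singled out in TG 5, at 37.05 FPKM against 5.53 to 8.48 FPKM in the other TG libraries.

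TG 5 and WT 2 made up 8 of the 16, all high, Des in TG 5 among them. The summed skeletal muscle markers were 2009 FPKM in TG 5 and 3623 FPKM in WT 2. Acta1 was at 588.1 FPKM in TG 5 and 1097 FPKM in WT 2, Tpm1 at 36.56 FPKM in TG 5 and 65.15 FPKM in WT 2, and Synm at 2.183 FPKM in TG 5.

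The other such values fell on 4 libraries. In WT 5, Cdh5 was high at 45.53 FPKM, Cnn2 at 22.05 FPKM and Adam10 at 7.858 FPKM, and Ptger3 was low at 4.945 FPKM. In WT 1, Pdgfra was high at 3.336 FPKM and Elk1 at 1.42 FPKM. Ncstn was high in TG 1, at 13.05 FPKM, and Elk1 in TG 3, at 2.456 FPKM.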

How the results depend on the processing

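Cspg4 was called higher and Acta2, Myl9 and Rgs5 were called lower under all 24 alternatives, and so were Myh11, Cnn1 and Notch3 under the 23 that kept them. Leaving out each library in turn gave 6 to 8 members called lower and 1 called higher, the members that changed being Pdgfrb and Des. Over all tested genes it gave 2278 to 2743 called higher and 2291 to 2819 called lower. With a filter of 5 FPKM only 5 members could be tested, and 3 were lower. Under it 1445 genes were called higher and 1703 lower. The number of genes tested with that filter is not given here, so no share stands beside these counts. Rescaling that set aside the mitochondrial, the haemoglobin and the 20 strongest genes gave 5287 higher and 1546 lower, division by all recovered reads 5536 and 1442, and voom on recovered reads 5635 and 1445. With both that rescaling and that division 2 SRF list genes and 7 relatives were lower, and 11 Notch, 2 RGS and 2 vasoactive genes were higher. Acta1, not called, was negative without TG replicate 5 (-0.54) and without WT replicate 5 (-0.74), and leaving out each library gave -0.74 to 1.52. With the replicate block 7 members were lower and 1 higher, and 2389 genes were higher and 2458 lower; Jag1, Vim and Tead1 were then not called (adjusted p = 0.0577 to 0.0696). Division by reads outside the mitochondrial chromosome was added after seeing the data, and the call of Pdgfrb was lost with it. The low read numbers of Cnn1 in TG and of Tagln in both groups limit their precision.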
